A study of Mus musculus with 2 samples.

Results

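Regulatory T (Treg) cells that carried transcripts of the nucleotide and uracil enzymes Dctd, Ung and Shmt1 or of the licensing-associated gene Cdca7, but almost none of the mitotic genes, made up 94 of the 7024 cells in the count table. A cell was placed in this class when its unique molecular identifiers (UMIs, each standing for one captured transcript) of Dctd, Cdca7, Ung and Shmt1 summed to 3 or more, and those of Mki67, Top2a, Birc5, Cdk1 and Ube2c to less than 3. The class held 53 of 3634 control cells (1.46%, exact binomial 95% interval 1.09 to 1.90) and 41 of 3390 rescued cells (1.21%, 0.869 to 1.64). Because the cells were chosen on counts from the same libraries, their levels of these 9 genes, and every contrast of the class with the other cells, are given as descriptions.

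The study restored Foxp3, the transcription factor that specifies Treg cells, in mice that were born without a working allele, and compared the cells so made with Treg cells that had carried Foxp3 throughout. Control cells came from Foxp3DTR-GFP/yCd4creERT2 mice, whose Foxp3 gene was never interrupted and carries a diphtheria toxin receptor fused to green fluorescent protein (GFP). Rescued cells came from Foxp3LSL/yCd4creERT2 mice, in which a removable STOP cassette blocks Foxp3 until Cre recombinase, made under the Cd4 gene and active only with tamoxifen, excises it. Both groups also had a Cre-dependent tdTomato reporter at Rosa26, were male C57BL/6 mice of 7 months, and had been given 4-hydroxytamoxifen once, at postnatal day 14, to activate Cre. GFP+ cells of spleen and lymph node were sorted, pooled from 5 control and from 4 rescued mice, and each pool gave 1 droplet-based 3′ library. With 1 library per group there were no replicates: the genotype, the Foxp3 allele, the pool and the library cannot be told apart, no test was possible, and each 95% interval covers counting error only.

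Before a cell copies its DNA it passes from G1 into S phase. Growth signals first raise Myc-type biosynthesis (ribosome assembly, translation, nucleotide synthesis), D-type cyclins with Cdk4 or Cdk6 then inactivate the retinoblastoma proteins, and E2F factors switch on the genes for origin licensing and DNA synthesis. Licensing loads the Mcm2-7 helicase onto origins before S phase, replication forks then use Pcna, polymerases and ligase, and histone and mitotic genes follow. In Treg cells stimulation through the T cell receptor (TCR) is a main trigger of this sequence. Of the 4 genes that chose the class, Dctd deaminates dCMP toward the precursor of thymidylate, Shmt1 supplies one-carbon units for thymidylate synthesis, Ung removes uracil from DNA, and Cdca7 is an E2F and Myc target that works with the remodeller Hells.

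Promoter sequence is shown for Cdca7, the most abundant of the 4 genes that chose the class, and for 3 genes of licensing and DNA methylation that were higher in it, so that the letters read by E2F factors can be seen where these genes begin. Each stretch of 30 bases is from RefSeq (GRCm38.p6), written 5′ to 3′ on the strand of the gene, with matches to TTTCCCGC, TTTGGCGC, TTTCGCGC or TTTGCCGC, or to the reverse complement of one of these, in capitals, overlapping matches included. The stretches lie at chr2:72476139-72476168 on the plus strand (Cdca7), chr8:75109347-75109376 on the plus strand (Mcm5), chr1:128359795-128359824 on the minus strand (Mcm6) and chr19:38930919-38930948 on the plus strand (Hells). The first 3 lie upstream of the annotated gene, and that of Hells lies inside the annotated span of Hells, upstream of the start site used here.
Cdca7: cgtcccggcGCGGGAAAgccggtggccccg
Mcm5: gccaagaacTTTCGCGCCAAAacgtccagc
Mcm6: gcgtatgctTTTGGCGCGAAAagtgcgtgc
Hells: ccaccgggtTTTCCCGCgaaagagaagcgc

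Over windows from 250 bases before to 50 after the start, one of these E2F-type matches was present for 9 of 19 licensing genes with a promoter in the table (47.4%), against 704 of all 27025 genes (2.61%). It was also present for 7 of 22 replication fork genes, 6 of 13 G1/S cyclin and E2F genes and 5 of 12 genes of DNA methylation and chromatin. Among biosynthetic genes it was present for 4 of 21 ribosome biogenesis genes and 3 of 17 translation genes. None of the 14 TCR stimulation genes, 12 resting genes, 12 thymidylate and folate genes or 25 mitotic genes held it in this window. Of the 4 genes that chose the class only Cdca7 held a match. The letters CACGTG, an E-box of the kind read by Myc (the same on both strands), were found for 8.09% of all genes. They were found for 4 of 21 ribosome biogenesis genes, 6 of 17 translation genes and 1 of 19 licensing genes. They were also found for 6 of 22 replication fork genes, 3 of 13 G1/S cyclin and E2F genes and 3 of 14 TCR stimulation genes. Among the 1154 genes 1.5-fold higher in the class that had a promoter in the table, 6.33% held an E2F-type match and 18.5% an E-box, against 4.89% and 12.5% of the 6803 measured genes with a promoter. A match is a description of the letters and says nothing of whether a factor binds there.

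The 4 genes that chose the class were unevenly shared among its cells. Cdca7 (chr2:72476187-72486892) had 170 UMIs in 73 of the 94 cells, and at most 11 in 1 cell. Ung (chr5:114130366-114139321) had 102 UMIs in 62 cells, Shmt1 (chr11:60788897-60811265) had 93 UMIs in 47 cells, and Dctd (chr8:48099092-48141667) had 54 UMIs in 40 cells. Membership rested on few molecules: the summed count was 3 in 43 cells, 4 in 24, 5 in 8, and 6 or more in 19, with a maximum of 18. A single gene of the 4 was detected in 11 cells, 2 in 44 cells, 3 in 33 cells and all 4 in 6 cells.

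Shmt1 was the gene of the 4 whose ratio between the libraries had an interval without 0. It was detected in 33 of 53 control and 14 of 41 rescued class cells, at 143 and 80.1 CPM (its UMIs scaled to the summed UMIs of the cells), a log2 ratio of rescued over control of -0.83 (-1.52 to -0.18). The same ratios were -0.28 for Cdca7, 0.08 for Ung and -0.01 for Dctd, each with an interval that held 0. These values are descriptions, as the 4 genes set who was counted.

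The values just inside and just outside the threshold were graded. The 43 cells with a summed count of 3 had 10264 CPM of ribosome biogenesis genes, 5608 of TCR stimulation genes and 1016 of licensing genes, and the 126 non-mitotic cells with a summed count of 2 had 7593, 3519.9 and 653. The cells just inside were also deeper, with a median of 6777 UMIs against 5324.5.

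The class had more UMIs per cell (depth) than the rest, and a cut on counts favours such cells. Its median was 7507.5 UMIs per cell (7192 control, 8442 rescued) against 3759 in the other 6930 cells. The part of RNA content per cell in this difference was not tested. The libraries held 15446201 and 15537656 UMIs in all. The median mitochondrial share was 8.19% in the class and 9.27% in the other cells. All ratios are therefore of CPM, and a depth-standardised ratio, in which both sets of cells were weighted to the class's own depth over 10 bins, is given where it bears on a value. The libraries shared 3 cell barcodes, none of them in the class. Leaving out the 3.5% of each library with the highest doublet scores removed 2 of the 94 class cells, 1 in each library.

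The cells had the transcripts of Treg cells. Cd3e was detected in 89 of 94, Ikzf2, which encodes Helios, in 88, Ctla4 in 78, Il2ra in 74, Cd4 in 53 and Foxp3 in 57. Cd79a and Ms4a1 (B cells), Lyz2 and Tyrobp (myeloid cells), Cd8a and Klrd1 (CD8 T and NK cells), and Dntt and Ptcra (thymocytes) were at 0 UMIs in the class. Cd79b was detected in 14 class cells and in 14.3% of the other cells, and Cd8b1 in 9 class cells and 6.65% of the others. Itgam was detected in 2 class cells and in 0 of the others. As whole lists, 9 B cell genes summed to 30.9 CPM in the class and 48.6 in the other cells, 7 myeloid genes to 154 and 187, and 5 thymocyte genes to 27.2 and 67.2. The 7 CD8 T and NK cell genes went the other way, at 209 CPM in the class and 50.4 in the other cells (log2 2.05, 1.81 to 2.28). Of their 169 class UMIs 159 were of Nkg7, and without it the log2 ratio was -0.68. The 5 red blood cell genes were also higher, at 4.94 CPM in the class and 1.09 in the other cells (log2 2.17, 0.22 to 3.67). This ratio rests on 4 class UMIs.

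The name of pre-replicative biosynthetic cells matched the biosynthetic genes in nearly every cell and the licensing genes in fewer. Pcna was detected in 56 of 94 cells, Mcm6 in 54, Mcm5 in 40 and Mcm3 in 38. In the other cells these 4 genes were detected in 23.3%, 24.4%, 8.77% and 10.5%. Transcripts that mark entry into S phase were found in few cells. Tyms was found in 23 cells, Tk1 in 13, Ccne1 in 6, and Cdc6, Ccne2 and Rrm2 in 2 cells each. As counted, Tyms was found in 24.5% of class cells and 9.49% of other cells. It was found in 30.8% of the 91 cells with 3 or more mitotic UMIs. The same shares were 6.38%, 1.65% and 7.69% for Ccne1, and 2.13%, 1.86% and 8.79% for Rrm2. Class cells were also deeper than the other cells. Each of the 94 class cells held at least 1 licensing UMI. The licensing list exceeded the median of the other cells in 61 of them, and ribosome biogenesis did in 92. For this reason the cells are called below by the rule that chose them, as the class.

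Across the 8792 genes with at least 200 UMIs over all cells, 1483 genes (16.9%) were 1.5-fold or more higher in the class than in the other cells, and 2090 (23.8%) were 1.5-fold or more lower. The median log2 ratio of these genes was -0.10, and -0.12 after depth standardisation. These shares are the background for the counts of list members that follow, in which only members past the minimum of 200 UMIs (measured members) are counted and "higher" or "lower" means past 1.5-fold.

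Ribosome biogenesis genes were higher throughout their list. All 27 measured members of the list were higher in the class, with a median log2 ratio of 1.89, and their summed level was 12975 CPM in the class against 4090.2 in the other cells (log2 1.67, 1.64 to 1.69). The ratio was 1.66 within the control library and 1.65 within the rescued library. Ncl and Npm1, abundant nucleolar proteins, had log2 ratios of 1.95 and 1.35 and were found in all 94 cells. Nop56 and Nop58, core proteins of the box C/D particles that methylate ribosomal RNA, stood at 1.89 and 2.05, and Nhp2, of the particles that make pseudouridine, at 2.35. Odc1 and Srm, successive enzymes of polyamine synthesis and known Myc targets, stood at 2.05 and 2.80. Myc itself was detected in 48 of 94 cells, at 188 CPM against 56.7 (log2 1.73, 1.48 to 1.97). Per cell, 92 of 94 class cells exceeded the median of the other cells for this list (3540.0 CPM), with a range of 2846 to 28524 CPM.

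Translation factors and chaperones were also higher. All 20 measured members were higher, and the sum was 26810 CPM against 11775 (log2 1.19, 1.17 to 1.21). Eif5a, the translation factor that carries the polyamine-derived residue hypusine, stood at 1.78, the mitochondrial chaperone Hspd1 at 1.94 and the nuclear transport GTPase Ran at 1.64. The lowest ratio among them was that of the export receptor Xpo1, at 0.61.

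Nucleotide synthesis was higher at most steps of the purine and pyrimidine pathways, and the subunits of ribonucleotide reductase were divided. Of 22 measured members of the purine, pyrimidine and reductase list, 18 were higher and 1 was lower, with a summed log2 ratio of 1.24 (1.19 to 1.30). Ctps, which makes CTP, stood at 2.87, Umps and Cad, of the pyrimidine pathway, at 2.07 and 1.94, and the purine enzymes Gart and Impdh2 at 1.56 and 1.52. Rrm1, a reductase subunit, was higher at 0.69 (0.03 to 1.28), Rrm2 had 3 class UMIs, and Rrm2b, the subunit used outside S phase, was lower at -1.94.

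The thymidylate and folate list showed an enzyme-by-enzyme pattern in which the sum and the median differed in sign. Of 12 measured members 8 were higher and 3 were lower, with a median of 1.31, whereas the summed ratio was -0.19 (-0.28 to -0.09). Mthfd1 (2.37), Dctpp1 (1.79), Shmt2 (1.78) and Dut (1.22) were higher. Samhd1, which degrades deoxynucleotides and held most of the UMIs of the list, was lower at -1.40, and the salvage kinases Dck and Tk2 were lower at -1.57 and -1.40. Tyms, which makes thymidylate, stood at 0.73, and at 0.14 after depth standardisation.

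Origin licensing genes were higher as a list: 10 of 16 measured members were higher and none was lower, at 1249 CPM against 530.5 (log2 1.24, 1.14 to 1.33). The helicase subunits led, with Mcm3 at 2.47, Mcm5 at 2.45, Mcm7 at 1.67, Mcm6 at 1.44 and Mcm4 at 0.92, and Mcm2 was 4.01-fold higher. The loading factor Cdt1 stood at 0.98 and its inhibitor Gmnn at 1.23. The origin recognition subunits Orc3 and Orc5, at -0.10 and 0.03, and the kinase subunit Dbf4, at -0.10, did not reach 1.5-fold. Depth bore on this list more than on the biosynthetic lists, as the standardised sum was 0.85, and the Mcm3 and Mcm5 ratios were 1.60 and 1.62 after standardisation.

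At the replication fork, 15 of 23 measured members were higher and none was lower, with a summed log2 ratio of 0.75 (0.66 to 0.84) and 0.51 after depth standardisation. Timeless and Tipin, which protect the fork, stood at 2.11 and 1.75, the ligase Lig1 at 1.77, the clamp Pcna at 1.26 and the flap nuclease Fen1 at 1.37. Rpa1, which coats single-stranded DNA, stood at -0.49 and Rfc2, of the clamp loader, at 0.17. For maintenance of DNA methylation, Hells and Uhrf1 stood at 2.42 (1.64 after depth standardisation) and 3.02, with 66 and 19 class UMIs, and Dnmt1 at 0.97. Apex1, the endonuclease that acts after Ung in base excision repair, stood at 2.51 and was found in 70 of 94 cells, while Polb, the next enzyme, stood at 0.20.

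The regulators of the G1 to S step were divided. Cdk4 was higher at 1.28 (317 against 130 CPM) and was found in 81 class cells, Ccnd2 was higher at 0.78, Cdc25a, the phosphatase that activates Cdk2, was higher at 1.43, and Ccnd3 was lower at -0.73. Inhibitors of proliferation were lower: of 10 measured members of the list of CDK inhibitors and pocket proteins, 9 were lower and none was higher (summed log2 -1.10, -1.19 to -1.01). Cdkn1b, which encodes p27, had 76.5 CPM against 232 (log2 -1.60), Cdkn2d stood at -1.95, Btg1 at -1.12 and the pocket protein Rbl2 at -0.83.

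Mitotic genes stood near their level in the other cells, and histone genes were divided. The 28 mitotic genes outside the rule summed to 191 CPM in the class and 181 in the other cells (log2 0.08, -0.16 to 0.31), with a log2 ratio of -0.43 after depth standardisation. The rule bears on this ratio, since it kept the 91 cells with 3 or more mitotic UMIs out of the class and left them among the other cells. In the 6000 non-mitotic cells with none of the 4 class genes the mitotic list stood at 157 CPM (152 to 162), against 191 (162 to 224) in the class. Of 11 measured histone genes 3 were higher and 6 were lower, and the summed ratio of 0.67 rested on the variant histone H2afz, which is not confined to S phase: without it the ratio was -0.14.

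**Figure D1:**
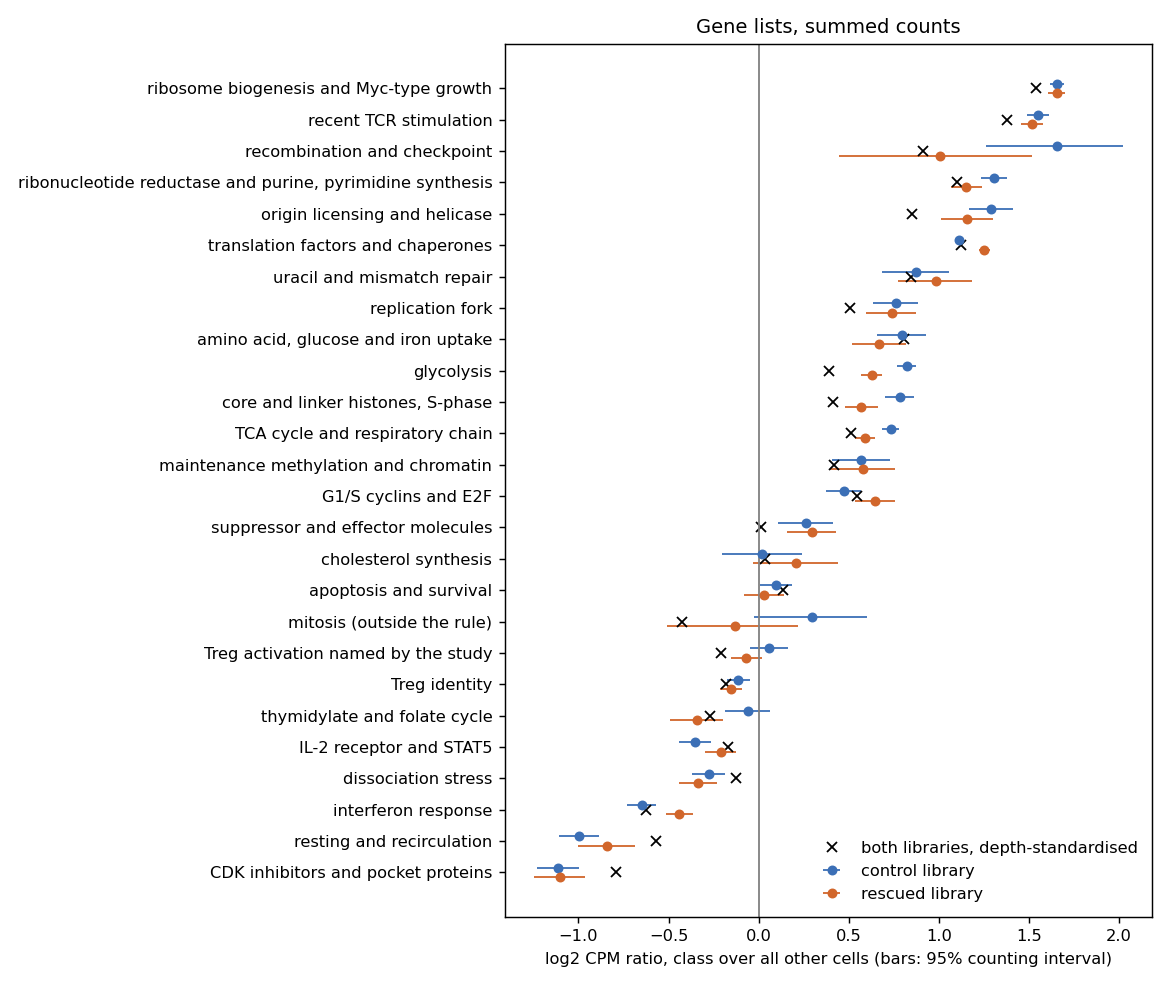
Log2 ratio of summed CPM, class over other cells, for the gene lists (vertical axis) in the control and in the rescued library, with 95% counting intervals as bars and the depth-standardised ratio as crosses. Ribosome biogenesis stood at 1.66 in the control and 1.65 in the rescued library, and the list of CDK inhibitors and pocket proteins at -1.11 and -1.10.

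Genes of recent TCR stimulation were higher and genes of resting, recirculating T cells were lower. Of 16 measured TCR stimulation genes 13 were higher and 1 was lower, at 5840.1 CPM against 2052 (log2 1.51, 1.47 to 1.55). The costimulatory receptors Tnfrsf4 (OX40) and Tnfrsf9 (4-1BB) stood at 2.14 and 1.91, the orphan receptors Nr4a3 and Nr4a1 at 2.48 and 1.76, and the transcription factors Irf4 and Batf at 1.58 and 1.39. Egr1, an immediate early gene, was lower at -0.97, and Cd69 stood at -0.02. Of 14 resting genes 10 were lower and none was higher by 1.5-fold (summed log2 -0.90, and -0.57 after depth standardisation). The egress receptor S1pr1 stood at -1.92, its regulator Klf2 at -1.60 and Il7r at -1.29, whereas Ccr7, the lymph node homing receptor, stood at 0.51.

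Shares of cells at a fixed depth gave the same order for Tnfrsf9, Myc, Mcm6 and Cdkn1b, but not for every gene. After thinning each cell to 2000 UMIs, which left out no class cell and 98 of the 6930 other cells, Tnfrsf9 was detected in 44.7% of class cells and 16.8% of other cells (75.5% and 26.8% as counted). Myc was detected in 22.3% and 8.47% (51.1% and 14.6% as counted), and Mcm6 in 28.7% and 12.5% (57.4% and 24.4%). Cdkn1b went the other way, at 16.0% and 37.4% (39.4% and 58.0%). Foxp3, with a log2 CPM ratio of -0.38, was detected in 36.2% of class cells and 33.3% of other cells after thinning. Ccne1 was detected in 0% and 0.644% after thinning, against 6.38% and 1.65% as counted.

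Among genes outside the rule with at least 500 UMIs over all cells, the 15 with the highest class ratios were led by Irf8. Irf8 is a transcription factor of the interferon regulatory family best known from myeloid and B cells. It had 230 UMIs in 48 class cells, at most 23 in 1 cell, and 284 CPM against 33.7 (log2 3.07, 2.86 to 3.28, and 2.75 after depth standardisation). The part of other cell types in this value was not tested. The others were mostly genes of growth and replication. Grwd1, Mrto4 and Pno1 act in ribosome assembly, and Mettl1 methylates transfer RNA, with log2 ratios from 2.42 to 2.57. Atad3a, a mitochondrial membrane ATPase, stood at 2.44, and Srm, Apex1, Mcm3, Mcm5 and Hells, given above, were also among the 15. Ifrd2, Marcksl1 and the neurofilament gene Nefh stood between 2.54 and 2.55. Marcksl1 rested mainly on the control library, at 3.06 there and 1.09 in the rescued library, with 19 of its 73 UMIs in 1 cell, and stood at 1.96 after depth standardisation. Nkg7, a cytotoxic granule gene, was set by few cells: it had 159 UMIs in 15 cells, 45 of them in 1 cell, and its ratio of 2.68 was 2.23 without that cell. It was 3.00 in the control and 1.59 in the rescued library, and 1.82 after depth standardisation.

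Under the same minimum, the 10 genes with the lowest ratios had only 1 to 3 class UMIs each, so their ratios are imprecise. Gpr146, with 1 UMI, had a log2 ratio of -4.46 (-9.76 to -1.97), and Prg4, with 2 UMIs, of -4.10 (-7.14 to -2.24). Plac8, the interferon gene Ifit3, the surface protein gene Cd7, BC147527, 4930481A15Rik, Phf11a, Mturn and March9 followed, from -3.94 to -2.84.

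Set against the 91 mitotic cells, the class was separated by biosynthesis and TCR genes more than by replication genes. Mitotic cells, with 3 or more UMIs of the 5 mitotic genes, were 30 of the control library (0.826%) and 61 of the rescued library (1.80%), and 10 of them also had 3 or more UMIs of the 4 class genes. The log2 ratio of the class over mitotic cells was 1.58 for ribosome biogenesis, 1.49 for TCR stimulation, 0.40 for licensing and 0.22 for the replication fork. It was -2.17 for the mitotic list, as the rule implies. This list was uneven among the mitotic cells. Those with fewer than 3 class UMIs had 252 CPM (189 to 329) in 24 control and 895 (822 to 972) in 57 rescued cells. Control class cells had 199 CPM (159 to 244), an interval that overlapped that of the 24. Mitotic cells with 3 or more class UMIs had 1899 CPM in 6 control and 257 in 4 rescued cells, the latter from 14 UMIs. The 10 mitotic cells with the class genes had 2442 CPM of licensing and 2553 of replication fork genes, above the 1249 and 1251 of the class, and the other 81 had 611 and 739.

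Across cells with 0, 1, 2 and 3 or more UMIs of the 4 class genes, and few mitotic UMIs, the lists went in different steps. Ribosome biogenesis stood at 3784, 5304, 7593 and 12975 CPM, and TCR stimulation at 1945, 2437, 3519.9 and 5840.1, so that both were already higher at 1 UMI. Licensing stood at 499, 599, 653 and 1249, with most of the difference at the last step. The resting list went down, from 2407 through 2273 and 1885 to 1264. The 4 sets held 6000, 713, 126 and 94 cells, and their median depth went from 3677 through 4268 and 5324.5 to 7507.5 UMIs, so depth moved with the steps.

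**Figure D2:**
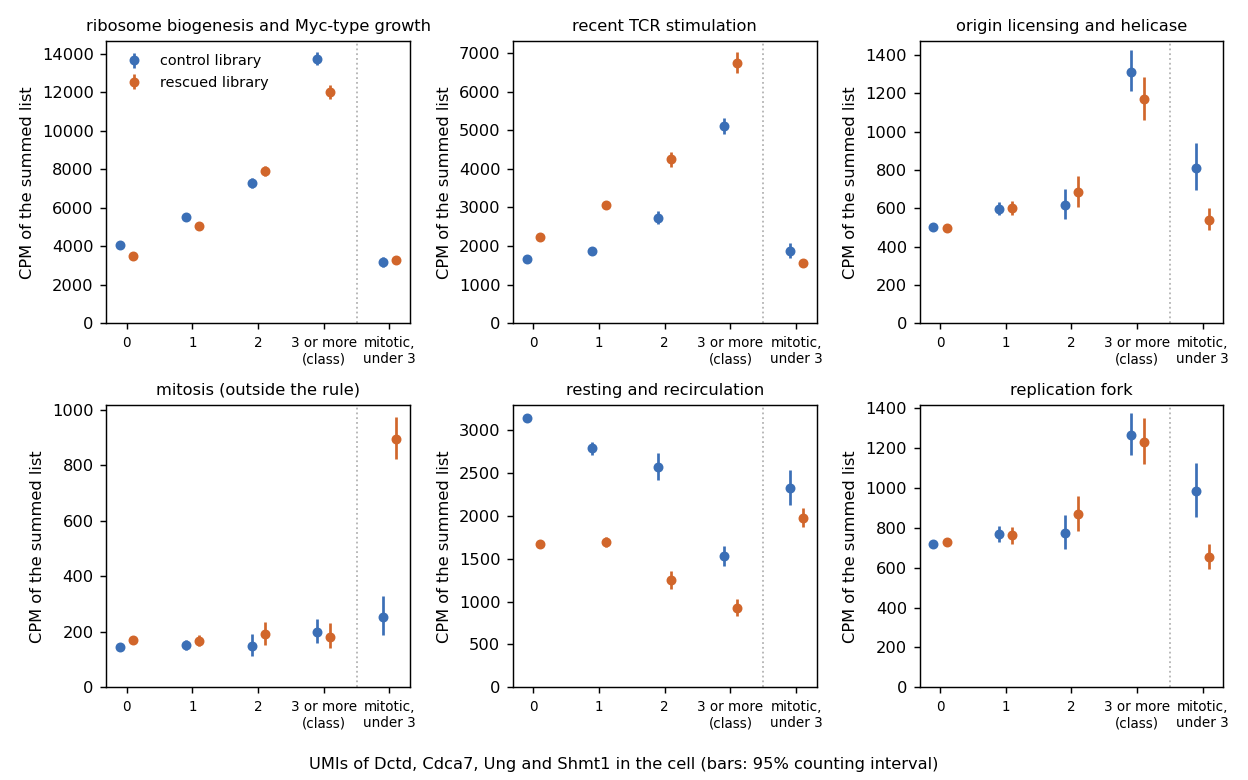
CPM of 6 gene lists (vertical axes) in cells with 0, 1 or 2 UMIs of the 4 class genes, in the class, and in mitotic cells with fewer than 3 UMIs of the class genes. Each library has its own points, with 95% counting intervals as bars. Ribosome biogenesis went from 3784 CPM at 0 UMIs to 12975 in the class, over both libraries. Licensing stood between 497 and 684 CPM in the non-mitotic cells of each library outside the class, at 1314 and 1169 in control and rescued class cells, and at 812 and 541 in control and rescued mitotic cells.

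The differences were also present among cells of a similar depth. Between 5963.5 and 10157.8 UMIs per cell, the middle range of the class, there were 46 class cells and 809 other cells, with medians of 7507.5 and 7186 UMIs. Ribosome biogenesis was at 12217 and 4259.5 CPM, TCR stimulation at 6305 and 2538, licensing at 1129 and 541, and the replication fork at 1129 and 736. Irf8 was at 362 and 36.7 CPM, the resting list at 1312.5 and 1951, and the mitotic list at 187 and 202.

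Within the class, biosynthesis was shared by nearly all cells and licensing was not. Licensing exceeded the median of the other cells (458 CPM) in 61 of 94 class cells, against 92 for ribosome biogenesis and 84 for TCR stimulation. The class median for licensing was 670.3 CPM, with a range of 131 to 4465. The 32 cells with 10 or more licensing UMIs held 79.8% of the 1012 licensing UMIs of the class, at 2139 CPM, and also had 1903 CPM of replication fork genes. The 26 cells with 1 or 2 licensing UMIs had 739 CPM of fork genes, close to the 743 of cells outside the class, but 13855 CPM of ribosome biogenesis genes against 12156 in the 32 cells. They also had more Myc, at 297 CPM (218 to 395) against 114 (82.4 to 153), and more TCR stimulation transcripts, at 6403 against 4079. The 36 cells with 3 to 9 licensing UMIs had 226 CPM of Myc (173 to 290). Their TCR stimulation level was the highest, at 7943 CPM (7613 to 8284), so TCR stimulation did not fall steadily with more licensing UMIs. The 32 cells were deeper, with a median of 10531.5 UMIs against 6020.5 in the 26 cells, and a cut on UMIs favours deep cells. Of the 32 cells 20 were control and 12 rescued cells.

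**Figure D3:**
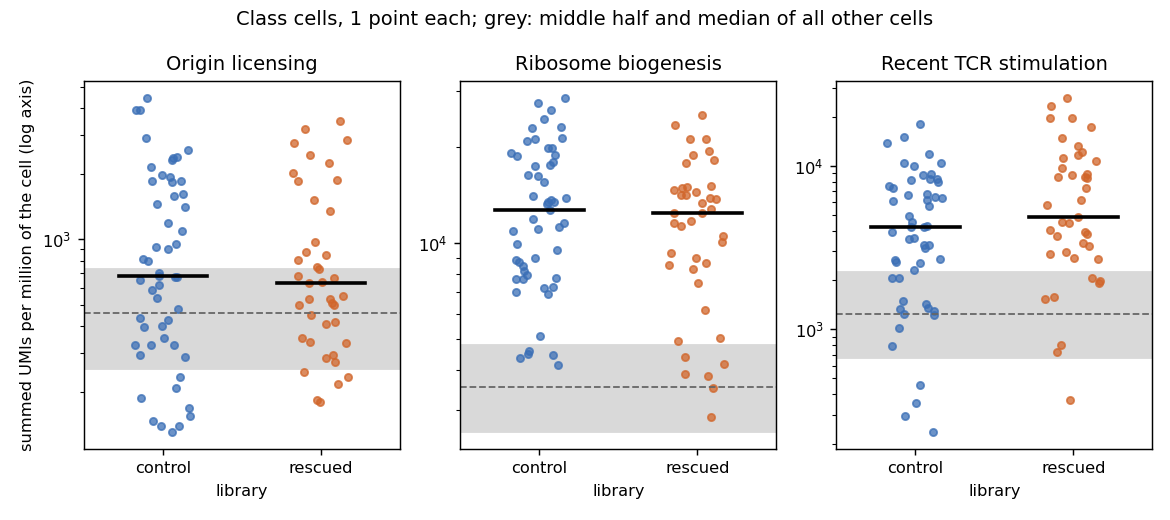
CPM of origin licensing, ribosome biogenesis and recent TCR stimulation genes in each class cell (points, log axis) by library, with the class median of each library as a black line and the median and middle range of the other cells as a dashed line and grey band. For ribosome biogenesis 92 of 94 cells lie above the dashed line, and for licensing 61 of 94.

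The few mitotic UMIs that the rule allowed lay mostly in the 32 cells with 10 or more licensing UMIs, 12 of which had at least 1. In the class 77 cells had no mitotic UMI, 13 had 1 and 4 had 2. The 17 cells with 1 or 2 had 2038 CPM of licensing genes (1845 to 2245) and 1878 of fork genes, and the 77 without had 989 (912 to 1071) and 1045. TCR stimulation was at 5864 and 5832 CPM, with overlapping intervals, and ribosome biogenesis at 12041 and 13282. Irf8 was at 110 CPM in the 17 cells and 341 in the 77. The 17 cells were deeper, with a median of 12131 UMIs against 7192. With the 17 cells counted among the other cells, the licensing ratio of class over other cells was 0.87 on the log2 scale.

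Levels of these lists differed with which of the 4 genes had the most UMIs in a cell. This split used the same UMIs that chose the class, which summed to only 3 in 43 cells, so the leading gene rests on few molecules and the values are descriptions. The cells in which Shmt1 had the most UMIs of the 4 (16 cells, 9 control and 7 rescued) had 9360.3 CPM of TCR stimulation genes (8832 to 9912), 751 of Irf8 (607 to 919) and 607 of licensing genes (478 to 760.0). Cells led by Cdca7 (34 cells, 19 control and 15 rescued) had 4982 CPM of TCR stimulation genes (4749 to 5224), 172 of Irf8 and 1636 of licensing genes (1504 to 1778). The 11 cells led by Ung resembled those led by Cdca7, at 4162, 226 and 1753 CPM. The 5 cells led by Dctd had 389 CPM of licensing genes from 12 UMIs, and 28 cells had a tie. In both libraries licensing was lower in Shmt1-led than in Cdca7-led cells, at 634 against 1805 CPM in control and 573 against 1423 in rescued cells. Irf8 had the opposite order in both, at 648 against 209 CPM in control and 878 against 126 in rescued cells. The median depth was 6591.5 UMIs in Shmt1-led and 9103.5 in Cdca7-led cells.

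**Figure D4:**
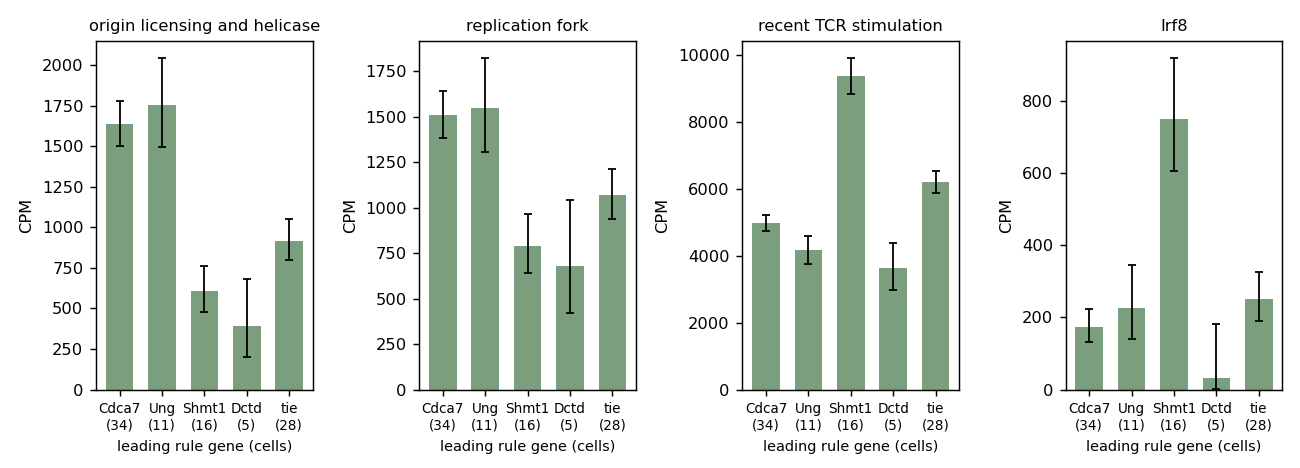
Summed CPM (bars from 0, with 95% counting intervals) of licensing genes, replication fork genes, TCR stimulation genes and Irf8 in class cells grouped by which of Cdca7, Ung, Shmt1 and Dctd had the most UMIs. Shmt1-led cells stand at 607 CPM for licensing and 751 for Irf8, against 1636 and 172 in Cdca7-led cells.

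Inside the class, rescued cells were set against control cells for 3030 genes with at least 50 class UMIs. Of these 162 (5.35%) were 1.5-fold or more higher in rescued cells and 185 (6.11%) lower, with a median log2 ratio of -0.03. Genes of Treg identity and activation were higher in rescued class cells and genes of resting cells lower, with ratios near those in the cells outside the class. The sums of the ribosome biogenesis, translation, licensing and fork lists differed by less than 1.5-fold.

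Foxp3 was the gene the study restored. It was detected in 21 of 53 control class cells and 36 of 41 rescued class cells, at 58.0 and 403 CPM (log2 2.80, 2.19 to 3.46), and the ratio in other cells was 2.53. After thinning to 2000 UMIs it was detected in 9 of 53 and 25 of 41 class cells, and in 14.2% and 53.6% of other cells (26.1% and 71.5% as counted). The Foxp3 alleles of the mice differ in structure, so allele and level cannot be told apart. TdTomato was at 312 and 702 CPM (log2 1.17, other cells 0.76). Of its 394 class UMIs, 254 were in rescued cells, with 50 in 1 rescued cell and 49 in another. Without the cell with 50 the class ratio was 0.88, and it was not computed without both. It was detected in 38 of 53 control and 28 of 41 rescued class cells.

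Activation genes named by the study (chosen on Treg cells of these mice, and so no independent evidence of direction) were higher in rescued class cells for 7 of 9 measured members, with none lower. Their sum was 1642 CPM in control and 3039 in rescued class cells (log2 0.89, 0.75 to 1.03), against a ratio of 1.02 in other cells. Itgae (CD103, an integrin of tissue-resident T cells) was found in 9 of 53 control and 33 of 41 rescued class cells, at 42.4 and 298 CPM (log2 2.82, other cells 2.02). Cxcr3 stood at 2.83, with 8 and 46 UMIs, Ahr at 1.82 and Icos at 0.77, the last with 1.33 in other cells. Treg identity genes were higher for 7 of 12 measured members (summed log2 0.49, other cells 0.53), with Capg at 0.98 and Gpr83 at 1.37, while Ikzf2 stood at 0.13 and Izumo1r at -0.03. The IL-2 receptor and STAT5 list was higher for 6 of 11 members and lower for 1, with Il2ra at 0.63, Cish at 0.85, and Bcl2 lower at -0.93.

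Resting genes were lower in rescued class cells by a summed log2 ratio of -0.72 (-0.91 to -0.53), against -0.87 in other cells, with 3 of 7 measured members lower and none higher. Klf2 had 134 UMIs in 30 control cells and 35 UMIs in 11 rescued cells (log2 -1.63), Tcf7, a factor of stem-like T cells, stood at -1.33 and Ccr7 at -1.04. The resting list exceeded the median of the other cells in 17 of 53 control but 3 of 41 rescued class cells. Il7r, of the same list, stood at 0.51 (-0.01 to 1.03).

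The sums of the ribosome biogenesis, translation, licensing and replication fork lists differed by less than 1.5-fold between the libraries. Class cells of both libraries had passed the same cut on the 4 genes. No ribosome biogenesis gene of 24 and no translation gene of 19 was past 1.5-fold. Both sums stood at -0.19 (-0.25 to -0.14 and -0.23 to -0.15), against -0.19 and -0.33 in other cells. The purine, pyrimidine and reductase sum stood at -0.17 (-0.28 to -0.06), and that of thymidylate and folate at -0.21 (-0.40 to -0.03). Recombination and checkpoint genes stood at -0.71 (-1.37 to -0.08), from 65 control and 32 rescued UMIs. The licensing sum stood at -0.17 (-0.35 to 0.01) with 2 of 8 members lower, and the replication fork sum at -0.04 (-0.22 to 0.14). The mitotic list stood at -0.12 in the class (-0.60 to 0.35) and 0.30 in other cells. TCR stimulation genes stood at 0.40 (0.32 to 0.49) in the class and 0.44 in other cells, with Tnfrsf4 at 0.74, Tnfrsf9 at 0.69, and Nfkbia and Cd200 at -0.46 and -0.92.

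Some of the 20 genes with the most different levels had a class ratio unlike the one in other cells, which was not tested. Penk, the precursor of enkephalin and a gene of TCR-stimulated Treg cells, had 65 UMIs in 7 control cells and 146 in 13 rescued cells (log2 1.48, 1.04 to 1.92), against -0.02 in other cells. Its class ratio was 2.31 after depth standardisation and 1.15 without the cell that held 33 of its UMIs. Igtp, an interferon-induced GTPase, stood at 1.30 (0.81 to 1.80) against 0.06, and Tspan13, a tetraspanin, at -1.15 (-1.68 to -0.64) against -0.37. Ly6a stood at 1.89 and AW112010 at 1.27, against 1.08 and 0.88. Ahnak, a large scaffold protein, and Mdfic stood at 1.46 and 1.20, and Foxp1, Ptms, Tbc1d4 and Gm10076 from -1.16 to -0.97.

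Single cells set some of these values. Gzmb, a granzyme gene with the highest ratio of all, had 103 class UMIs, of which 97 came from 1 rescued cell and 6 from 3 control cells. Ccl4, a chemokine of stimulated T cells, had 87 control and 33 rescued UMIs (log2 -1.09), but 68 came from 1 control cell, and without it the ratio was 1.06 (-0.33 after depth standardisation with all cells). Nkg7 had 132 UMIs in 10 control cells and 27 in 5 rescued cells (log2 -1.98, and -1.44 without the cell that held most).

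**Figure D5:**
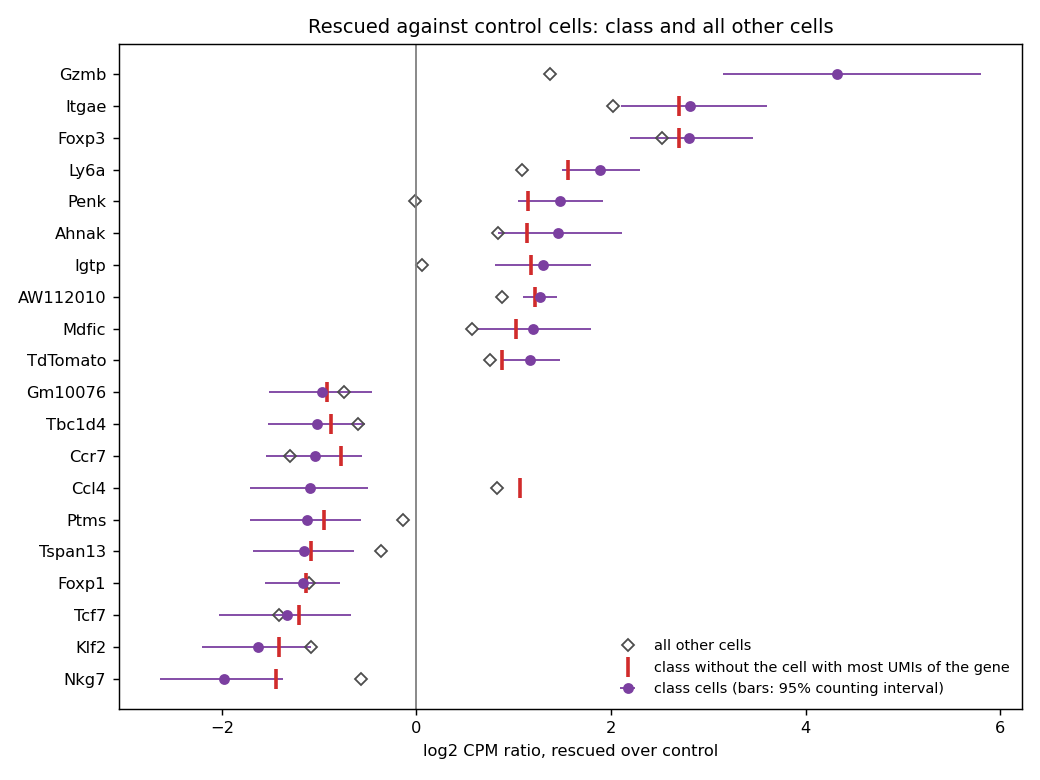
Log2 ratio of CPM, rescued over control, for the 20 named genes in class cells (points with 95% counting intervals), in other cells (diamonds), and in class cells without the cell with most UMIs of the gene (red ticks). Itgae and Foxp3 stand near each other at 2.82 and 2.80, and Ccl4 turns from -1.09 to 1.06 without 1 cell.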

How the data were processed

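Sorted GFP+ Treg cells of spleen and lymph node were profiled by 10x 3′ droplet sequencing, with 1 library per group. The authors made the deposited table of UMI counts with Cell Ranger 3.0 on GRCm38 with the tdTomato sequence added, and the submitters' processing notes also name Seurat 3.1.5. It holds 7024 cells and 16098 genes, none of them a ribosomal protein gene. The stated removal of cells with a high mitochondrial share cannot be checked from these counts. Their median share is 9.25%, but it is taken over totals that lack the ribosomal protein genes. The authors' log-normalized table was not used.

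Counts were summed over the cells of each set and expressed as CPM. Log2 ratios of CPM carry the exact conditional 95% interval of the 2 counts, and shares the exact Clopper-Pearson interval. Both cover counting error only, and a count of 0 still has an upper limit above 0. With 1 library per group, no p-value was computed. Genes needed 200 UMIs over all cells (class against other cells) or 50 UMIs over the class (rescued against control), and were counted as past the threshold at 1.5-fold. Depth was standardised by weighting ratios over 10 bins of UMIs per cell, and shares of state genes were read after thinning each cell to 2000 UMIs (seed 1). The named genes are the 15 highest and 10 lowest class ratios among genes with 500 UMIs, the 10 highest and 10 lowest rescued ratios among genes with 100 class UMIs, the genes of the rule, Foxp3, TdTomato and up to 6 abundant members of each of 31 lists. Members named outside this rule were chosen after their values were seen. The rankings leave out mitochondrial genes, those of antigen receptors and the genes of the rule.

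The members and the gene lists were chosen with earlier results of these data known. Doublets were scored with Scrublet in Scanpy 1.11.5, and Python 3.11.15, NumPy 2.4.6, SciPy 1.17.1 and matplotlib 3.10.9 were used. The ratio and its interval were tested on simulated data. Promoter sequences and gene positions are from RefSeq, GRCm38.p6. Alternatives covered the minimum of UMIs, the threshold of the rule, each of its genes, depth, the mitochondrial share, doublets and the weight of single cells and genes.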

Additional observations from a re-analysis of the deposited data

Results flagged for a closer look

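For a pair of genes the ratio had opposite signs in the 2 libraries or in the 2 sets of cells. These differences were not tested, since each group has 1 library, and each rests on few cells. Lag3, an inhibitory receptor, stood at a log2 ratio of class over other cells of 0.64 in the control library and -0.72 in the rescued library, from 46 and 19 class UMIs. Of these 65 UMIs 25 came from 1 cell, without which the ratio over both libraries was -0.60. Ccl4, a chemokine, stood at a log2 ratio of rescued over control cells of -1.09 in the class and 0.82 in the other cells (interval -0.03 to 1.71). Of its 120 class UMIs 68 came from 1 control cell, without which the class ratio was 1.06.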

How the results depend on the processing

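No paired analysis was possible because only 1 library stands for each genotype. Of 303 alternative values for gene lists past 1.5-fold in the class 301 kept their direction, as did 496 of 499 for genes past it, 69 of 70 for lists past it between rescued and control class cells, and 288 of 289 for genes. Of these 280, 489, 55 and 275, in the same order, were still past 1.5-fold. The direction turned, under alternatives chosen after seeing the data, for the histone list (-0.14) and the CD8 T and NK list (-0.68 for class over other cells, 1.53 for rescued over control) without the most abundant gene, and Ccl4 (1.06) without 1 cell. It also turned for Mki67 (0.87 after thinning) and Cdk1 (-0.71 depth-standardised, -0.27 with a sum of 2). The cause was not tested for other moved values. With no minimum of UMIs 2736 genes were higher and 7342 lower in the class, and 2404 and 2726 in rescued class cells; with a sum of 2, 1174 were lower in the class.

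The licensing ratio was 0.85 depth-standardised, 1.05 as a mean of cells, 0.84 and 1.40 with a sum of 2 and 4, 1.36 without Dctd, 1.45 without Shmt1 and 0.87 with no mitotic UMI. The ribosome biogenesis ratio was 1.54 depth-standardised, 1.70 as a mean, 1.36 and 1.84 with a sum of 2 and 4, 1.81 without Cdca7, 1.76 without Ung, 1.80 with at most 10% mitochondrial UMIs and 1.81 without the most abundant gene. The TCR ratio was 1.38 depth-standardised, 1.69 as a mean, 1.21 with a sum of 2, 1.62 without Cdca7, 1.57 without Ung, 1.23 without Shmt1, 1.66 after thinning, 1.55 in the control library and 1.13 without the most abundant gene.

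Genes higher in rescued class cells numbered 284 and 84 with a sum of 2 and 4, 97 without Cdca7 and 510 after thinning, and 577 were lower after thinning. The activation ratio was 1.03 depth-standardised, 1.11 as a mean, 0.72 without Shmt1, 1.03 with no mitotic UMI, 1.21 after thinning and 1.04 without the most abundant gene. The class was 3.36% and 0.853% of control cells with a sum of 2 and 4, 0.743% without Cdca7, 0.991% without Ung, 1.02% without Shmt1 and 0.308% after thinning. The same shares of rescued cells were 2.89% and 0.59%, 0.501% without Cdca7, 0.796% without Ung and 0.179% after thinning. The 94 cells limit single genes: the median width of a gene's 95% interval was 1.09 on the log2 scale for class over other cells and 1.20 for rescued over control.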

Other observations

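Part of the genes of nutrient uptake and energy metabolism were higher in the class. Of 12 measured uptake genes 6 were higher and 1 was lower, led by the amino acid transporter Slc7a5 (log2 2.67), the lactate transporter Slc16a1 (2.44) and the transferrin receptor Tfrc (2.23), while the glucose transporter Slc2a3 was lower (-1.24). Of 12 glycolysis genes 7 were higher and none was lower, with the hexokinase Hk2 at 3.01 and Tpi1 at 2.05, and the summed ratio was 0.72, or 0.39 after depth standardisation. Of 20 genes of the TCA cycle and respiratory chain 8 were higher, with a sum of 0.67, and of 13 cholesterol synthesis genes 2 were higher and 1 was lower, with a sum of 0.11. Of 14 apoptosis and survival genes 4 were higher, 2 were lower and 8 did not reach 1.5-fold, with a sum of 0.08. Bcl2l1 (Bcl-xL) and Bcl2a1d, which protect cells, stood at 1.86 and 1.70, against -0.92 for Bcl2 and -1.39 for the death gene Bbc3.

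Treg identity genes were at similar levels in and out of the class (summed log2 -0.16), with Tnfrsf18 higher at 0.70, and Nrp1, Nt5e and Entpd1 lower, at -0.76, -0.66 and -0.89. Of 14 interferon response genes 8 were lower and none was higher, with Ifit1 at -1.53 and a sum of -0.56. The IL-2 receptor and STAT5 list had 5 lower and 1 higher of 15 members, with Socs3 at -1.61 and Stat5a at 1.37. Of 14 measured suppressor and effector genes 7 were lower and 2 were higher, and the 2 higher were Gzmb (2.39, 97 of 103 UMIs from 1 cell) and Tbx21 (2.52, 22 UMIs in 10 cells). Genes of cell dissociation stress were lower for 6 of 10 members (sum -0.31). The recombination and checkpoint list had 2 of 3 measured members higher (sum 1.41), led by Dtl at 2.49, and uracil and mismatch repair had 5 of 11 higher and 2 lower (sum 0.93). In rescued against control class cells, Tbx21 stood at 2.97 (3 and 19 UMIs, in other cells 0.17), and this difference was not tested. The apoptosis list stood at -0.27 in the class and -0.21 in other cells.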
